A study of Mus musculus with 24 samples.

Results

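The genes described here are 10 members of the tumour necrosis factor (TNF) superfamily, out of 55487 genes listed in bulk RNA-seq of C2C12 myotubes, the multinucleated cells that this mouse skeletal muscle line forms on differentiation. They are the ligand genes Tnfsf15, Tnfsf9, Tnfsf12 and Tnf and the receptor genes Tnfrsf25, Tnfrsf12a, Tnfrsf1a, Tnfrsf1b, Tnfrsf10b and Fas. Tnfsf15 was picked on its values at 1 % O2 in unstimulated myotubes, where it had the largest decrease among called genes with a mean of 100 or more at 5 % O2 and no overlap of the groups, and its relatives were set beside it by name. Of the 10 genes, 9 passed the filter on low values, which asked for 10 or more normalized counts in 6 or more of the 24 libraries, and were among the 14541 genes tested, and Tnf did not pass.

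All cultures were C2C12 cells with no genetic change, differentiated under 5 % O2 and labelled as day 5 of differentiation. They were exposed for 2 h to 5 % or 1 % O2, and were harvested either unstimulated (5 % CTRL and 1 % CTRL) or directly after electrical stimulation (5 % STIM and 1 % STIM). In the methods of the study these 2 h preceded the stimulation bouts, and the medium was changed before and after the bouts. Stimulated cultures may thus differ from unstimulated ones in time and medium as well, which was not tested. Each of the 4 groups had 6 libraries, described as biological replicates in the methods of the study. They are cultures of 1 cell line, so the p-values measure the spread between cultures of that line.

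Ligands of the TNF superfamily are made as membrane proteins, and several are released from the cell surface by proteases such as ADAM17. They bind receptors of the TNF receptor superfamily, which signal through TRAF adaptor proteins and ubiquitin enzymes to NF-κB and stress kinases. Receptors with an intracellular death domain can also recruit caspase-8 and start cell death. In skeletal muscle, TNF and TWEAK (the product of Tnfsf12) are best known for their links to wasting, and Fn14 (the product of Tnfrsf12a) for its rise after injury or denervation.

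Libraries held 26541858 to 28173745 reads, and the authors' size factors were 0.955 to 0.992 at 5 % O2 and 1.02 to 1.05 at 1 % O2. As a check of the labels, the oxygen-responsive genes Slc2a1, Adm, Vegfa and Pdk1 were all higher in 1 % CTRL than in 5 % CTRL (4 of 4 called). Between 1 % STIM and 5 % STIM 3 of the 4 were higher and Vegfa was lower (log2 fold change -0.089, adjusted p = 0.0169). Nr4a1, 1 of 4 genes listed as responsive to stimulation, rose with stimulation at 5 % O2 (log2 fold change 1.27) and at 1 % O2 (1.20). The other genes of that check, Fos, Egr1 and Junb, were not called with stimulation at either O2 level. Nr4a1 also rose with low O2 (1.29 in unstimulated and 1.21 in stimulated myotubes), so its rise is not particular to stimulation. Myotube markers were abundant in every library, with a summed normalized count of 448991 to 490619 in 5 % CTRL, 400232 to 436226 in 1 % CTRL, 407232 to 467974 in 5 % STIM and 390592 to 433967 in 1 % STIM. Of the 8 myotube markers, 5 were lower at 1 % O2 in each state. Myog changed most (log2 fold change -0.66 unstimulated and -0.76 stimulated). Acta1 and Des were not called in either state, and the median of the 8 was -0.13 unstimulated and -0.11 stimulated. Among all genes tested, 59.9 % were called in unstimulated myotubes (29.4 % higher and 30.5 % lower) and 57.4 % in stimulated ones (29.0 % higher and 28.4 % lower). Myoblast markers summed to 1794 to 2074 in 5 % CTRL, 1933 to 2943 in 1 % CTRL, 2029.8 to 2282 in 5 % STIM and 2051 to 2475 in 1 % STIM, and 3 of 4 were higher at 1 % O2 in unstimulated and 2 of 4 in stimulated myotubes. Fibroblast markers summed to between 40009 and 54843 in the 24 libraries, almost wholly from Col1a1 (group means 41581 to 47681). Group means were 1065 to 1291 for Dcn, 138 to 220 for Pdgfra and at most 2.24 for Thy1. Of the 3 tested, 3 were lower in 1 % CTRL and 1 in 1 % STIM. Macrophage markers summed to between 61.4 and 115, with Ptprc and Adgre1 at or near 0 in all libraries. Cd68 held 27.6 to 69.4, Itgam 12.3 to 23.4 and Csf1r 5.78 to 25.1 normalized counts per library. Csf1r was called lower at 1 % O2 in unstimulated (log2 fold change -0.58) and stimulated myotubes (-0.70). Itgam was called lower in unstimulated myotubes only (-0.49), and Cd68 in neither state. The groups overlapped in each case. T cell markers summed to at most 3.84 and endothelial markers to at most 25.7. In bulk RNA, fewer cells of a type and less RNA per cell cannot be told apart. The part of these shifts in the results on TNF superfamily genes was not tested.

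Tnfsf15 encodes TL1A, the ligand of the death domain receptor encoded by Tnfrsf25. The gene lies on the minus strand of chromosome 4 (GRCm38, chr4:63727084-63745113, ENSMUSG00000050395, protein coding). Its normalized count was 516 to 679.9 with a median of 599.6 in 5 % CTRL, and 96.9 to 141 with a median of 119 in 1 % CTRL. The groups did not overlap, and their means were 597 ± 54.5 and 122 ± 16.2 (SD, n = 6), a log2 fold change of -2.29 (SE 0.094). Because the gene was picked on this comparison, these values are a description and no test is given. It ranked 1 among 2675 genes called lower in 1 % CTRL whose groups did not overlap and whose mean in 5 % CTRL reached 100, and the next was Arc, a neuronal activity gene, at 308 ± 37.1 and 66.9 ± 11.01 (log2 fold change -2.19).

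That ranking used the unstimulated libraries only, and the stimulated ones were tested. The members were chosen with earlier results of these data known, so this test may not be independent of the choice. In 5 % STIM the normalized count of Tnfsf15 was 585 to 707 with a median of 656, and in 1 % STIM it was 107 to 172 with a median of 141. All 6 libraries of 1 % STIM lay below all 6 of 5 % STIM. Tnfsf15 was 4.63-fold lower in 1 % STIM (means 141 ± 24.7 and 651 ± 41.8, log2 fold change -2.21, SE 0.094, 95 % interval -2.40 to -2.02), with an adjusted p of 1.05e-18 in limma. The SE comes from all 4 groups, so libraries used in the choice enter the error term of this test. Tnfsf15 stayed called under every alternative tried, among them a fit of the stimulated groups alone. Stimulation left smaller differences, which share libraries with the choice and are given without a test. The log2 difference of 5 % STIM from 5 % CTRL was 0.13 and that of 1 % STIM from 1 % CTRL was 0.20, each with overlapping groups.

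**Figure D1:**
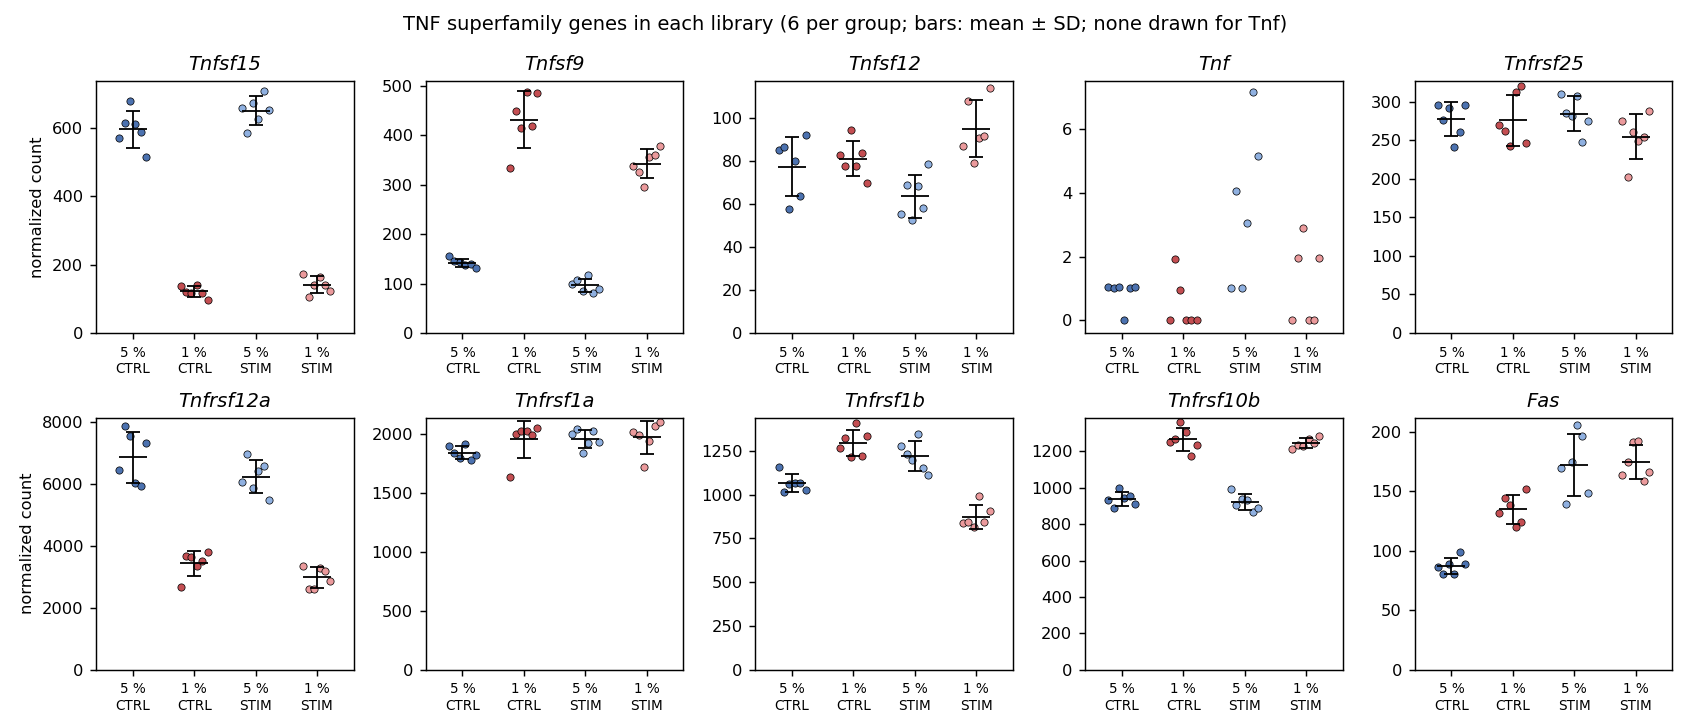
Normalized counts (vertical axes, linear) of the 10 TNF superfamily genes in each library, by group (horizontal axis, 6 points per group), with bars for mean ± SD except for Tnf. Tnfsf15 and Tnfrsf12a lay lower and Tnfsf9 and Tnfrsf10b higher in every library at 1 % O2 than at 5 % O2, whereas Tnfrsf1b lay highest in 1 % CTRL and lowest in 1 % STIM.

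Promoter sequences are shown for Tnfsf15 and Tnfrsf12a, which were both lower at 1 % O2, and for Fas, which was higher with stimulation and, in unstimulated myotubes, with low O2. They come from RefSeq (GRCm38.p6) and run from 250 bases before to 50 bases after the annotated start, 5′ to 3′ on the gene's strand. Capitals mark matches on either strand to the core letters bound by hypoxia-inducible factors (ACGTG and GCGTG), to the AP-1 motif TGANTCA, to the NF-κB motif and to the E-box CANNTG, which overlaps ACGTG when it reads CACGTG.
Tnfsf15, chr4:63745010-63745309, minus strand: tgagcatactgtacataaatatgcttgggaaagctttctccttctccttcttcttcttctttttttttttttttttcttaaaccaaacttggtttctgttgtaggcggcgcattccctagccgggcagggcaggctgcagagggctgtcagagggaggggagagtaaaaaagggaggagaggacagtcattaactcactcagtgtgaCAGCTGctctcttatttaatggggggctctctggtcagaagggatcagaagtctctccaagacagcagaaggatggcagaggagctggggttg
Tnfrsf12a, chr17:23677400-23677699, minus strand: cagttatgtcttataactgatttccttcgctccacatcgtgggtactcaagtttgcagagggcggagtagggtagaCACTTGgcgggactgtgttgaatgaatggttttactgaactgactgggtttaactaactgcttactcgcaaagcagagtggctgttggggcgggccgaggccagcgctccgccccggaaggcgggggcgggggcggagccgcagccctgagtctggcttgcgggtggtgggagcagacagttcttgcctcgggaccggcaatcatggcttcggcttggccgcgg
Fas, chr19:34290409-34290708, plus strand: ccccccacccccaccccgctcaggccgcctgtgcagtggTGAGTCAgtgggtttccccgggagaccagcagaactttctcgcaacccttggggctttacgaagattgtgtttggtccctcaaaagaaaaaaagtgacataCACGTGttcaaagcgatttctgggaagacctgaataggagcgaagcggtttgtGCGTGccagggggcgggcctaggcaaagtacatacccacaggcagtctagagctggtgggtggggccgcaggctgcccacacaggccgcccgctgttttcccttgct
The windows of Tnfsf15 and Tnfrsf12a held an E-box as their only match, CAGCTG at positions -43 to -38 from the start and CACTTG at -174 to -169. The window of Fas held CACGTG at -110 to -105, GCGTG at -57 to -53 and the AP-1 letters TGAGTCA at -211 to -205. Among 32851 promoter windows of this length, 19.6 % held ACGTG, 32.4 % GCGTG, 7.81 % the AP-1 motif, 8.46 % the NF-κB motif and 72.3 % an E-box. The matches describe the windows only. The windows of Tnfrsf25, a gene not called with O2, held 1 match to ACGTG, 3 to GCGTG and 2 to the NF-κB motif, and that of Tnfrsf1b, which was higher or lower at 1 % O2 by state, held 1 match to GCGTG. Promoters of 7 of the 10 genes were in the table, and Tnfsf9, Tnfsf12 and Tnfrsf10b were not.

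Over all 24 libraries, the genes whose log2 values correlated most with those of Tnfsf15 among 11712 genes whose mean reached 50 were Clic4 (Pearson r = 0.992), Fgf2 (0.991), Ern1 (0.990), Galnt6 (0.990) and Ppp1r15b (0.989). The points are 4 groups that share the difference between O2 levels, so these values describe a common step and not independent variation. Each of these genes had a lower mean at 1 % O2 in both states. Fgf2, a fibroblast growth factor, averaged 1308 in 5 % CTRL and 537 in 1 % CTRL, and 1360.4 in 5 % STIM and 574 in 1 % STIM. Among TNF receptor genes, Tnfrsf11b (r = 0.977), Tnfrsf23 (0.935) and Tnfrsf12a (0.926) followed Tnfsf15, and Tnfsf9 (r = -0.962) and Tnfrsf10b (r = -0.955) ran against it.

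Tnfsf9 encodes the ligand of the costimulatory receptor encoded by Tnfrsf9, and rose at 1 % O2 in both states. Its normalized count was 132 to 155 with a median of 142 in 5 % CTRL, and 333 to 488 with a median of 434 in 1 % CTRL. In the stimulated groups it was 80.8 to 117 with a median of 94.4 in 5 % STIM, and 297 to 379 with a median of 346 in 1 % STIM. Groups at different O2 did not overlap in either state. Tnfsf9 was 2.996-fold higher in 1 % CTRL than in 5 % CTRL (log2 fold change 1.58, SE 0.088, adjusted p = 5.12e-17 in limma) and 3.55-fold higher in 1 % STIM than in 5 % STIM (log2 fold change 1.83, SE 0.088, adjusted p = 1.47e-18). Stimulation lowered it at 5 % O2 (log2 fold change -0.57, adjusted p = 6.43e-06) and at 1 % O2 (-0.33, adjusted p = 0.00562), and the 2 responses did not differ past the threshold (difference 0.25, 95 % interval -0.0081 to 0.50, adjusted p = 0.219). Of the exon bases of Tnfsf9 (chr17:57105325-57107757, plus strand), 14.9 % overlap the antisense gene Gm11110, and the counting did not use strand.

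Tnfsf12 encodes TWEAK. Its normalized count had medians of 82.4 in 5 % CTRL (57.6 to 92.1), 80.2 in 1 % CTRL (69.8 to 94.2), 63.4 in 5 % STIM (52.5 to 78.4) and 91.0 in 1 % STIM (78.9 to 114). The unstimulated groups overlapped (log2 fold change 0.078, adjusted p = 0.602), and the stimulated groups did not. Tnfsf12 was 1.49-fold higher in 1 % STIM than in 5 % STIM (log2 fold change 0.57, SE 0.12, adjusted p = 0.000139). Its responses to stimulation, -0.27 at 5 % O2 and 0.22 at 1 % O2, were not called, and their difference of 0.49 missed the threshold (95 % interval 0.14 to 0.84, adjusted p = 0.0585), which it passed in DESeq2 (adjusted p = 0.0426). Of its exon bases, 48.2 % are shared with the read-through gene Tnfsfm13 on the same strand, so that reads may have been split between them.

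Tnf was close to the limit of detection. Its reads summed over 6 libraries to 5 (5 % CTRL), 3 (1 % CTRL), 21 (5 % STIM) and 7 (1 % STIM), with at most 7 reads in a library. It had no read in 1, 4, 0 and 3 libraries of these groups. It did not pass the filter, so the main fit holds no test of it. In limma without the filter the log2 fold change was -0.43 (SE 0.44, adjusted p = 0.524) between 1 % CTRL and 5 % CTRL. Between 1 % STIM and 5 % STIM it was -1.16 (SE 0.44, adjusted p = 0.0405 in the same fit). That value rests on the few reads of 5 % STIM and is no support for a change.

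Tnfrsf25, the receptor gene for the product of Tnfsf15, was present in all groups. Its normalized count was 241 to 296 with a median of 284 in 5 % CTRL, 243 to 321 with a median of 266 in 1 % CTRL, 247 to 310.5 with a median of 283 in 5 % STIM and 202 to 288 with a median of 258 in 1 % STIM. The groups overlapped throughout. The log2 fold change was -0.013 in unstimulated myotubes (95 % interval -0.18 to 0.15, adjusted p = 0.905) and -0.16 in stimulated myotubes (95 % interval -0.33 to -1.41e-05, adjusted p = 0.0819). The second passed the threshold without 5 % STIM replicate 5 (-0.20, adjusted p = 0.0366) or without 1 % STIM replicate 6 (-0.20, adjusted p = 0.0399).

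Tnfrsf12a, which encodes the TWEAK receptor Fn14, had the highest level per kb of exon of the 10 genes and fell at 1 % O2. Normalized counts were 5917 to 7866 with a median of 6871 in 5 % CTRL, and 2664 to 3788 with a median of 3576 in 1 % CTRL. It was 5489 to 6963 with a median of 6233 in 5 % STIM, and 2606 to 3338 with a median of 3018 in 1 % STIM. The groups at 1 % O2 lay wholly below those at 5 % O2. The fall was 1.99-fold in unstimulated (log2 fold change -0.995, SE 0.094, adjusted p = 6.45e-09) and 2.09-fold in stimulated myotubes (-1.07, SE 0.094, adjusted p = 2.56e-09). Stimulation gave -0.13 at 5 % O2 (adjusted p = 0.352) and -0.20 at 1 % O2 (adjusted p = 0.137), the second of which passed without 1 % CTRL replicate 1 (-0.28, adjusted p = 0.0218).

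The TNF receptor genes Tnfrsf1a and Tnfrsf1b behaved differently from each other. Tnfrsf1a, the death domain receptor, had medians of 1833 in 5 % CTRL (1775 to 1915), 2013 in 1 % CTRL (1637 to 2050.3), 1964 in 5 % STIM (1841 to 2044) and 2001 in 1 % STIM (1718 to 2101). It was not called in any comparison, with log2 fold changes of 0.083 (adjusted p = 0.123) and 0.0054 (adjusted p = 0.930) between O2 levels in the unstimulated and stimulated state. The unstimulated difference passed without 1 % CTRL replicate 1, the lowest library of its group (0.13, adjusted p = 0.00272), and with libraries rescaled to the same total (0.16, adjusted p = 0.00404).

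Tnfrsf1b, which lacks a death domain and is common on immune cells, changed in all 5 comparisons, and the direction turned with the state of the myotubes. Its normalized count was 1017 to 1158 with a median of 1063 in 5 % CTRL, and 1212 to 1409 with a median of 1295 in 1 % CTRL. It was 1111 to 1346 with a median of 1215 in 5 % STIM, and 813 to 994 with a median of 843 in 1 % STIM. At 1 % O2 it was thus higher in unstimulated (log2 fold change 0.28, SE 0.049, adjusted p = 8.12e-06) and lower in stimulated myotubes (-0.48, SE 0.049, adjusted p = 2.43e-10), with no overlap of the groups in either state. Stimulation raised it at 5 % O2 (0.19, adjusted p = 0.00367), with overlapping groups, and lowered it at 1 % O2 (-0.57, adjusted p = 3.17e-11), without overlap. The response at 1 % O2 minus that at 5 % O2 was -0.76 (SE 0.069, 95 % interval -0.90 to -0.62, adjusted p = 7.13e-10).

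Tnfrsf10b encodes the receptor of the death ligand TRAIL. Normalized counts were 889.9 to 998 in 5 % CTRL and 867 to 995 in 5 % STIM, against 1175 to 1360.0 in 1 % CTRL and 1213 to 1287 in 1 % STIM. Every library at 1 % O2 lay above every library at 5 % O2. The rise was 1.35-fold in unstimulated (log2 fold change 0.43, SE 0.038, adjusted p = 6.74e-12) and 1.36-fold in stimulated myotubes (0.44, SE 0.038, adjusted p = 6.43e-12). Stimulation gave -0.027 at 5 % O2 (95 % interval -0.10 to 0.050) and -0.022 at 1 % O2 (95 % interval -0.10 to 0.055), neither called.

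Fas, a death domain receptor that binds the Fas ligand, rose with low O2 in unstimulated myotubes and with stimulation at both O2 levels. Libraries held 80.3 to 98.7 normalized counts with a median of 87.5 in 5 % CTRL, and 120 to 152 with a median of 135 in 1 % CTRL. It was 139 to 205 with a median of 172 in 5 % STIM and 159 to 192 with a median of 170.0 in 1 % STIM. The 5 % CTRL libraries were below all others, and the stimulated groups overlapped. Fas was 1.54-fold higher in 1 % CTRL than in 5 % CTRL (log2 fold change 0.62, SE 0.090, adjusted p = 3.28e-07). In the stimulated state the log2 fold change was 0.028 (95 % interval -0.16 to 0.21, adjusted p = 0.812). Stimulation raised Fas 1.95-fold at 5 % O2 (0.96, SE 0.090, adjusted p = 2.91e-10) and 1.29-fold at 1 % O2 (0.37, SE 0.090, adjusted p = 0.00228), and the response was smaller at 1 % O2 (difference -0.59, SE 0.13, adjusted p = 0.00160).

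**Figure D2:**
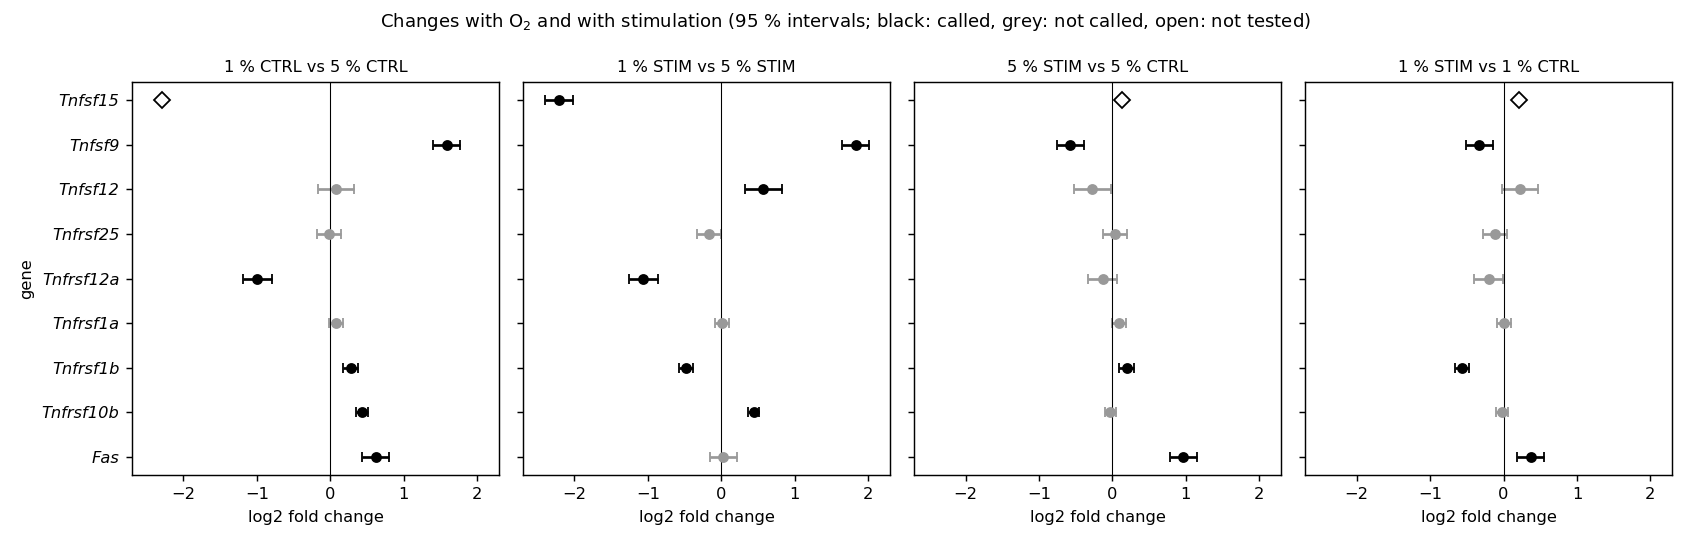
Log2 fold changes (horizontal axes) of the 9 tested genes in 4 comparisons, with 95 % intervals, black where called at an adjusted p under 0.05, grey where not called, and open diamonds where Tnfsf15 was not tested because it was picked on these libraries. The values for O2 spanned -2.29 to 1.58 in unstimulated and -2.21 to 1.83 in stimulated myotubes, and Tnfrsf1b pointed in opposite directions in these 2 panels.

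Counted together and leaving out Tnfsf15, 5 of 8 genes were called between 1 % CTRL and 5 % CTRL, 4 of them higher at 1 % O2 (Tnfsf9, Tnfrsf1b, Tnfrsf10b and Fas) and 1 lower (Tnfrsf12a). Among all genes tested, 59.9 % were called in this comparison, 29.4 % higher and 30.5 % lower, so the share of the 8 genes (62.5 %) was near the background. Between 1 % STIM and 5 % STIM, with Tnfsf15 counted, 6 of 9 were called, 3 higher (Tnfsf9, Tnfsf12 and Tnfrsf10b) and 3 lower (Tnfsf15, Tnfrsf12a and Tnfrsf1b). The background was 57.4 %, with 29.0 % higher and 28.4 % lower. Tnfsf15 was picked for its fall at 1 % O2, so its call is no independent support in this count. Stimulation changed 3 of 8 at 5 % O2, with Fas and Tnfrsf1b higher and Tnfsf9 lower, against 21.4 % of all genes (9.44 % higher and 12.0 % lower). At 1 % O2 it changed 3 of 8, with Fas higher and Tnfsf9 and Tnfrsf1b lower, against 22.3 % of all genes (11.5 % higher and 10.8 % lower). The response to stimulation differed between O2 levels for 2 of 8, Tnfrsf1b and Fas, both lower at 1 % O2, against 11.3 % of all genes (5.88 % higher and 5.43 % lower). Comparisons that include the same group share its libraries. The median log2 fold change of the genes counted was 0.18 in unstimulated and 0.0054 in stimulated myotubes between O2 levels, beside 0.0015 and -0.00083 over all genes tested.

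Per kb of exon, the order of the levels in 5 % CTRL was Tnfrsf12a (mean normalized count per kb 3547), Tnfrsf1a (711), Tnfrsf1b (279), Tnfsf15 (178), Tnfrsf10b (172), Tnfrsf25 (122), Tnfsf9 (111), Tnfsf12 (51.1), Fas (42.3) and Tnf (0.52). The ranges of the 6 libraries overlapped between the neighbours Tnfsf15 and Tnfrsf10b, Tnfrsf25 and Tnfsf9, and Tnfsf12 and Fas. In 5 % CTRL Tnfsf15 was therefore the ligand gene with the highest level per kb. In 1 % CTRL this place was taken by Tnfsf9 (335 per kb), whose range overlapped that of Tnfrsf1b (339), and Tnfsf15 stood at 36.4, below Tnfsf12 (53.4) with no overlap. The same order of the 3 ligand genes held in 1 % STIM (265, 62.6 and 42.3 per kb for Tnfsf9, Tnfsf12 and Tnfsf15).

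**Figure D3:**
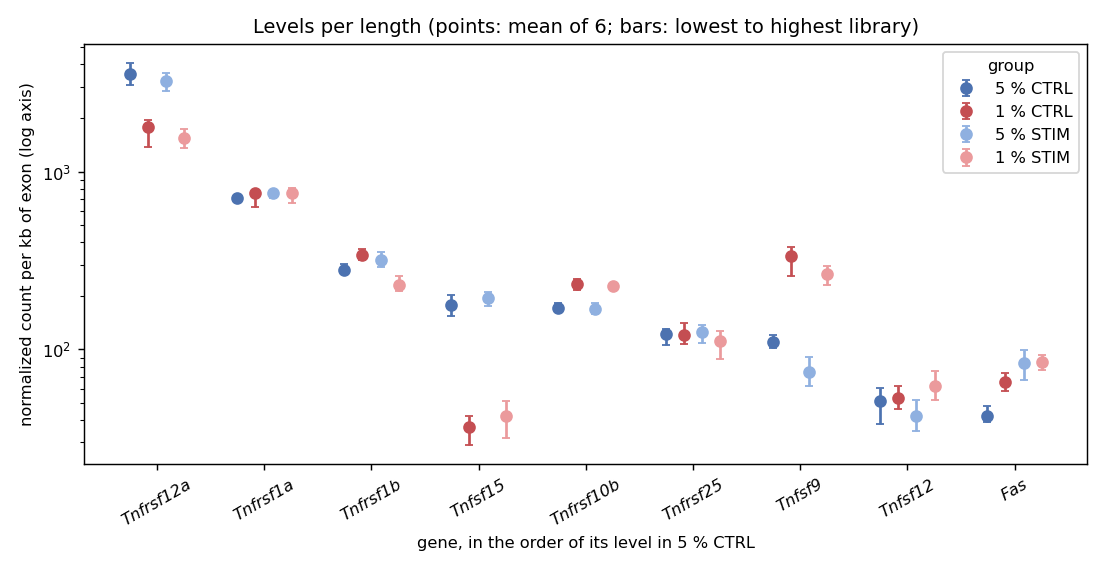
Normalized count per kb of exon (log axis) of 9 genes, ordered by their level in 5 % CTRL, with the mean of each group as a point and the lowest to highest of 6 libraries as a bar. Tnfrsf12a was highest in every group, and Tnfsf15 lay above Tnfsf9 at 5 % O2 and below it at 1 % O2.

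The rest of the pathway was described from 5 lists of 76 further genes, of which 55 passed the filter, 9 of them without reaching 10 normalized counts in every library. Between 1 % CTRL and 5 % CTRL 35 of 55 were called, 15 higher and 20 lower, and between 1 % STIM and 5 % STIM 36, 16 higher and 20 lower, shares of 63.6 % and 65.5 % beside the backgrounds given above. Stimulation changed 23 at 5 % O2 (16 higher and 7 lower) and 20 at 1 % O2 (14 higher and 6 lower). These are 41.8 % and 36.4 % of the 55, beside 21.4 % and 22.3 % of all genes (9.44 % and 11.5 % higher). These counts, and those of receptors and adaptors below, include genes that passed the filter largely through groups where they were high. They are Tnfsf18, Tnfrsf18, Tnfrsf26, Birc3 and Traf1, and their calls are no support for a change. The median log2 fold change of the 55 genes between O2 levels was -0.046 and -0.022.

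**Figure D4:**
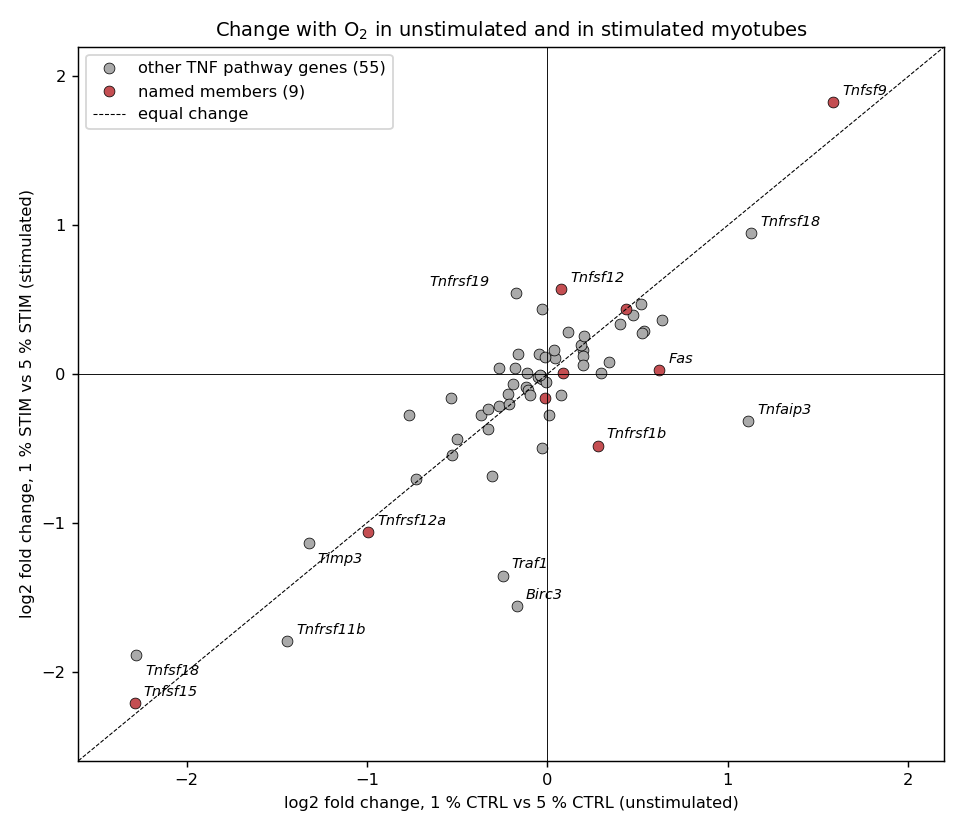
Log2 fold change between 1 % and 5 % O2 in unstimulated (horizontal axis) and in stimulated myotubes (vertical axis) for the 9 tested TNF superfamily genes named above (red) and 55 further pathway genes (grey), with a dashed line of equal change. Tnfsf15, which was picked on the horizontal axis, Tnfsf18, Tnfrsf11b, Timp3 and Tnfrsf12a lay low and Tnfsf9 and Tnfrsf18 high on both axes, whereas Tnfaip3 and Tnfrsf1b lay to the right of 0 and below it. Tnfsf18 and Tnfrsf18 had few reads and passed the filter mainly through the groups where they were high, so their places are no support for a change.

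Of 14 further ligand genes only Tnfsf13 and Tnfsf18 passed the filter. The ligand genes for Fas and Tnfrsf10b were all but absent, with at most 1.02 normalized counts of Fasl and 0.98 of Tnfsf10 in any library. Tnfsf18, the ligand gene of the costimulatory receptor gene Tnfrsf18, was low throughout, with a median of 9.73 (7.33 to 16.3) in 5 % CTRL, 0.97 (0 to 3.84) in 1 % CTRL, 14.2 (9.20 to 20.6) in 5 % STIM and 3.39 (0.96 to 10.5) in 1 % STIM. It passed the filter almost wholly through the groups where it was high, as 8 of the 9 libraries that reached 10 were at 5 % O2, so these values are given without a test. Tnfsf13, which overlaps the read-through gene Tnfsfm13 in 60.0 % of its exon bases, was called only between 1 % STIM and 1 % CTRL (log2 fold change 0.90, adjusted p = 0.0151), and not without 1 % CTRL replicate 4 or 1 % STIM replicate 5.

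Of 22 further receptor genes 13 passed the filter, and 5 of 13 (38.5 %) were called between O2 levels in each state, beside 59.9 % and 57.4 % of all genes. Tnfrsf18, given below without a test, is among the 5 in each state. Tnfrsf11b, which encodes the secreted decoy receptor osteoprotegerin, changed most. Libraries held 336 to 439 normalized counts with a median of 382 in 5 % CTRL, 129 to 160.3 with a median of 136 in 1 % CTRL, 455 to 536 with a median of 492 in 5 % STIM and 128 to 148 with a median of 144 in 1 % STIM. The groups at 1 % O2 lay wholly below those at 5 % O2, with log2 fold changes of -1.44 (SE 0.068, adjusted p = 5.47e-19) and -1.80 (SE 0.068, adjusted p = 1.72e-21). Stimulation raised it at 5 % O2 (0.37, adjusted p = 8.83e-05), while at 1 % O2 the value was 0.018, and the responses differed (-0.35, adjusted p = 0.0129). Tnfrsf18 had medians of 8.73 in 5 % CTRL and 18.3 in 1 % CTRL, and 9.76 in 5 % STIM against 23.0 in 1 % STIM. It reached 10 in all libraries at 1 % O2 and in 5 at 5 % O2, so that it passed the filter mainly through the groups where it was high, and no test is given. Of its exon bases, 27.2 % overlap the antisense gene Gm16008.

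Tnfrsf23, a decoy receptor gene, was lower at 1 % O2 in both states by 0.21 and 0.20 on the log2 scale without overlap (adjusted p = 1.44e-07 and 3.58e-07), and shares 13.7 % of its 75-base words with other genes, chiefly Tnfrsf22. Tnfrsf19 rose with stimulation, from a median of 122 in 5 % CTRL to 207 in 5 % STIM and from 112 in 1 % CTRL to 284 in 1 % STIM. The log2 fold changes of 0.71 (adjusted p = 4.22e-07) and 1.42 (adjusted p = 3.39e-14) differed by 0.72 (SE 0.13, adjusted p = 0.000264). Eda2r, a receptor of ectodysplasin with known links to muscle wasting, rose with stimulation at 5 % O2 (0.17, adjusted p = 0.000113) and at 1 % O2 (0.29, adjusted p = 9.43e-09). Tnfrsf9, the receptor gene for the product of Tnfsf9, stayed low, with group means between 8.54 and 12.4, and was not called in any comparison.

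Between the receptors and NF-κB, 17 of 25 adaptor and ubiquitin enzyme genes were called between O2 levels in each state, 11 lower and 6 higher in unstimulated and 13 lower and 4 higher in stimulated myotubes. That share of 68.0 % was near the 59.9 % and 57.4 % of all genes. Birc3 and Traf1, given below without a test, are among the 13 lower in stimulated myotubes. Tnfaip3, which encodes the NF-κB inhibitor A20, showed the widest turn. Unstimulated libraries held 836 to 968 normalized counts at 5 % O2 and 1884 to 2113 at 1 % O2, and stimulated ones 1342 to 1754 and 1091 to 1322. It was higher at 1 % O2 in unstimulated (log2 fold change 1.11, SE 0.050, adjusted p = 1.88e-19) and lower in stimulated myotubes (-0.32, SE 0.050, adjusted p = 1.46e-06). Stimulation raised it at 5 % O2 (0.72) and lowered it at 1 % O2 (-0.71), and the responses differed by -1.43 (SE 0.070, adjusted p = 3.08e-16). The adaptor gene Traf4 fell with low O2 (-0.73 and -0.71) and with stimulation (-0.41 at 5 % O2 and -0.38 at 1 % O2), with adjusted p of at most 2.97e-09. Traf5 fell at 1 % O2 by 0.77 in unstimulated and 0.28 in stimulated myotubes on the log2 scale (adjusted p = 1.14e-11 and 0.000798).

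Birc3, an inhibitor of apoptosis that acts in NF-κB signalling, and the adaptor gene Traf1 passed the filter largely through 5 % STIM, where all 6 libraries reached 10 normalized counts, and their values are given without a test. Birc3 had medians of 2.56 in 5 % CTRL and 20.8 in 5 % STIM, and 0.97 in 1 % CTRL against 5.85 in 1 % STIM. Its 5 % STIM libraries (12.4 to 26.6) lay above all others, and outside that group only 1 library, of 1 % STIM, reached 10. For Traf1 the medians were 10.4 and 16.2 at 5 % O2, and 8.64 and 7.74 at 1 % O2, without and with stimulation, and outside 5 % STIM it reached 10 in 5 libraries.

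**Figure D5:**
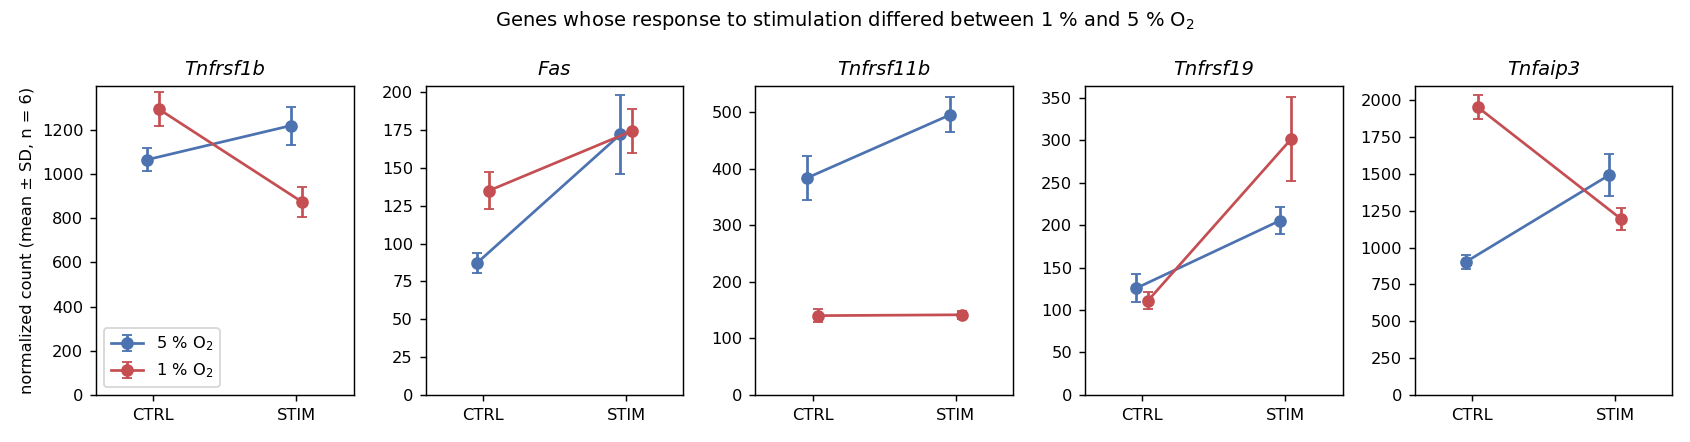
Normalized count (vertical axes, mean ± SD, n = 6) without and with stimulation (horizontal axis) at 5 % O2 (blue) and 1 % O2 (red) for 5 genes whose responses differed between O2 levels. Lines for Tnfrsf1b and Tnfaip3 cross, both genes rising with stimulation at 5 % O2 and falling at 1 % O2, and Tnfrsf11b stayed near 140 at 1 % O2.

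In the cell death branch, 9 of 10 genes were called in unstimulated and 10 of 10 in stimulated myotubes, with 7 and 8 higher at 1 % O2 and a median log2 fold change of 0.20 and 0.21. Among all genes, 59.9 % and 57.4 % were called, 29.4 % and 29.0 % higher. Casp8, the initiator caspase of death receptors, had medians of 293 in 5 % CTRL (255 to 311) and 399.7 in 1 % CTRL (383 to 470.1), and was higher by 0.52 on the log2 scale (adjusted p = 2.27e-08) and by 0.47 in stimulated myotubes (adjusted p = 2.21e-07). The necroptosis genes Mlkl (0.48 and 0.39) and Ripk3 (0.40 and 0.33) were also higher in both states, Ripk3 with overlapping groups. Xiap, which encodes an inhibitor of caspases, was called higher as well (0.20 and 0.26), without overlap. The genes that fell were Cflar, which encodes an inhibitor of caspase-8 (-0.50 and -0.44), and Bid, a target of caspase-8 (-0.33 and -0.37). Stimulation raised Cflar at 5 % O2 (0.26) and at 1 % O2 (0.32). Bid shares 17.7 % of its exon bases with the antisense gene Bcl2l13.

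The proteases that release TNF superfamily ligands showed no change with O2 that passed the test, with log2 fold changes of -0.052 and -0.022 for Adam10 and -0.029 and -0.033 for Adam17 in unstimulated and stimulated myotubes. Their regulators did change. Timp3, which encodes an inhibitor of ADAM17, had means of 96467 ± 5440.4 in 5 % CTRL and 38569 ± 2297 in 1 % CTRL, and of 88104 ± 4432 in 5 % STIM and 40084 ± 3362 in 1 % STIM. It fell by 1.32 and 1.14 on the log2 scale without overlap (adjusted p = 3.83e-18 and 1.24e-16). Rhbdf1 and Rhbdf2 encode inactive rhomboid proteins that bring ADAM17 to the cell surface. Rhbdf1 fell at 1 % O2 (-0.53 and -0.55), whereas Rhbdf2 rose (0.64 and 0.36) and also rose with stimulation (1.08 at 5 % O2 and 0.80 at 1 % O2, adjusted p of at most 6.38e-11).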

How the data were processed

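RNA was measured by bulk RNA-seq in 24 libraries of C2C12 myotubes, grouped by the labels of the samples into 4 groups of 6. Libraries were made by the authors with a stranded mRNA kit and sequenced from a single end. The reads were checked with FastQC 0.11.7, aligned to GRCm38 with STAR 2.5.4b and quantified per gene with RSEM 1.3.0, whose defaults ignore strand. The deposited signal is a DESeq2 normalized count, that is, reads of a gene over the size factor of its library, with no filter on low values and no pooling of replicates. A second deposited table holds only the authors' own comparisons (log2 fold changes, p-values and calls) and was not used. No column of values was left unmapped (0 columns).

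The members and the gene lists were chosen with earlier results of these data known. Every value was a whole multiple of its library's smallest step (100 % within a tolerance of 0.01), so whole reads were recovered for tests on counts. In 2 libraries (5 % CTRL replicate 5 and 5 % STIM replicate 3) that step lies close to 1, which makes the recovery harder to tell from rounding. Libraries held 26541858 to 28173745 reads, so a gene at a normalized count of 10 rests on about 10 reads. Replicates of a group correlated with Pearson r of at least 0.982, and none were alike within sampling noise.

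Genes that reached 10 normalized counts in 6 or more libraries were fitted on log2(normalized count + 1) in a single limma model of the 4 groups (limma 3.58.1 in R 4.3.3, trend and robust, no replicate block). Fold changes are on this scale, which understates those of low genes. P-values were adjusted by Benjamini-Hochberg over all 14541 genes tested, and genes under 0.05 were called. The interaction is the response to stimulation under 1 % O2 minus that under 5 % O2. The script was tested on simulated data. Tnfsf15 was tested only between 1 % STIM and 5 % STIM, since the other comparisons share libraries with its choice.

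Alternatives were no filter, a pseudocount of 10, libraries rescaled to the same total, a replicate block, the compared groups alone, an adjusted p under 0.01, leaving out each of the 24 libraries, and edgeR 4.0.16 (quasi-likelihood test), DESeq2 1.42.0 and limma voom on whole reads. On whole reads edgeR called 8744 genes between 1 % CTRL and 5 % CTRL, against 8708 in limma. The genes named are the 10 members, any tested ligand or receptor, up to 5 called genes with the largest change of each other list in each comparison, the 5 genes most like Tnfsf15 and the gene next to it in rank. A gene that this rule names is not reported here. Genes of a count of 5 or fewer, genes singled out by the flags below, and Xiap were also named after their values were seen. Of the genes listed, 55141 (99.4 %) were found in GENCODE M21, which gave coordinates, exon lengths and overlaps, and words of 75 bases were compared to find shared sequence. Promoters came from RefSeq (GRCm38.p6). Figures were drawn with matplotlib 3.10.9.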

Additional observations from a re-analysis of the deposited data

Results flagged for a closer look

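The response to stimulation differed between 1 % and 5 % O2, by the interaction term of the limma fit, for 2 TNF superfamily genes, Tnfrsf1b (-0.76 on the log2 scale) and Fas (-0.59). It also differed for 9 further pathway genes: Tnfaip3 (-1.43), Tnfrsf11b (-0.35), Tnip1 (-0.28), Traf2 (-0.26), Cyld (-0.25) and Traf3 (-0.22) responded less or more negatively at 1 % O2, and Tnfrsf19 (0.72), Traf5 (0.49) and Otulin (0.31) the other way. All 11 were tested and called at an adjusted p under 0.05. The shares were 25 % of 8 TNF superfamily genes and 16.4 % of 55 further pathway genes, beside 11.3 % of all genes tested.

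In 3 of 40 groups of 6 libraries, a library of a TNF superfamily gene was marked as apart from the other 5, where chance marks about 1 in 20 groups. Tnfrsf1a had a normalized count of 1637 in 1 % CTRL replicate 1, the lowest of that group. Tnfrsf1b had 1158 in 5 % CTRL replicate 1, the highest of that group. Tnf had 0 in 5 % CTRL replicate 4, where each of the other 5 libraries held 1 read, so that this mark rests on ties and a difference of 1 read, and the chance rate does not apply to it.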

How the results depend on the processing

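The number of TNF superfamily genes called kept its size within 1.5 times under all alternatives and all libraries left out, and no call of such a gene was lost or reversed. Of the checks of single genes, 1385 kept their side of the threshold. Among these, values not called could change sign, as for Fas between 1 % STIM and 5 % STIM (-0.031 to 0.081 with a library left out). For Tnfsf15 in the comparisons not tested, the check asked instead that its value move by less than the SD within groups. Tnf, fitted only without the filter, was not among the checks of single genes. In 14 further checks the threshold was passed in addition. These were the difference in response of Tnfsf12 (8 times, adjusted p 0.0241 to 0.0492), Tnfsf12 between 5 % STIM and 5 % CTRL without 5 % CTRL replicate 3 (-0.35, adjusted p = 0.0376), and the values of Tnfrsf12a, Tnfrsf1a and Tnfrsf25 given in the report. Among the 55 other pathway genes, 13 instead of 20 were called between 1 % STIM and 1 % CTRL at an adjusted p under 0.01. Rescaling libraries to the same total moved the median of all genes by 0.081 between 1 % CTRL and 5 % CTRL and by 0.070 between 1 % STIM and 5 % STIM, and small changes of pathway genes such as Tnfrsf21 (-0.18) then lost their call. The replicate numbers were shared but did not pair the libraries, with correlations of same-numbered libraries between -0.148 and 0.155 and the own number as best match for at most 4 of 12. With the replicate block, 5 and 6 TNF superfamily genes were called between O2 levels in the unstimulated and stimulated state, as without it, and 3 instead of 2 in the difference of responses. Depth limits Tnf, Tnfsf18, Tnfrsf18, Birc3 and Traf1, which rest on few reads per library.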

Other observations

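Several TNF superfamily genes lie beside relatives in the genome (GRCm38), most of which had few reads or none. Tnfsf8, a ligand gene 86.2 kb from Tnfsf15 on chromosome 4, had at most 2.02 normalized counts in any of the 24 libraries, against 96.9 to 707 for Tnfsf15. Cd70 and Tnfsf14, ligand genes 38.2 kb and 81.7 kb from Tnfsf9 on chromosome 17, had at most 1.94 and 0, against 80.8 to 488 for Tnfsf9. Lta, 1.16 kb from Tnf, had 0.96 to 8.37 where Tnf had 0 to 7.16. The receptor gene Tnfrsf8, 20.3 kb from Tnfrsf1b, had at most 3.92. By contrast Ltbr, the lymphotoxin beta receptor gene 35.5 kb from Tnfrsf1a, had 1494 to 1923 normalized counts where Tnfrsf1a had 1637 to 2101, and of its 5 comparisons only 1 % STIM against 5 % STIM was called (log2 fold change 0.16, adjusted p = 0.00140).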
